A study of Arabidopsis thaliana with 6 samples.

Results

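The 32 genes described here act in the phloem, the sugar-conducting tissue of plants, and were chosen by gene identifier from 32833 identifiers counted in each library. They were picked for known roles in phloem identity, sieve elements, companion cells and the movement of sugar. The samples were roots of Arabidopsis thaliana of 2 genotypes, a line labelled myb68 myb84 and the wild type Col (WT), with 3 libraries each and no treatment in either. Plants grew on half-strength MS plates at 22 °C under constant light, and RNA came from the top 2 cm of primary roots aged 18 days, in pools of 40 plants or more. MYB68 and MYB84 encode related MYB transcription factors, and the study asked how they act on cork, its suberin and stem cell proliferation. The sources used here do not give the mutant alleles or the number of independent lines.

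Phloem carries sucrose from leaves to roots through files of sieve elements, cells that lose their nucleus as they mature and are kept alive by companion cells beside them. In roots the vascular cambium lays down new phloem outside and new xylem inside, while the cork cambium forms the suberized phellem at the surface. Sieve element formation is promoted by membrane-associated proteins such as OPS and BRX and held back by CLE peptides acting through receptor kinases such as BAM3. Sucrose enters and leaves the conducting cells through proton-coupled SUC carriers and through SWEET facilitators.

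No phloem or sugar transport gene of the set passed an adjusted p of 0.05 between the genotypes in edgeR's quasi-likelihood test. Of the 30 tested, 0 were raised and 0 lowered in myb68 myb84, against 8.30% of all 20941 genes tested (4.66% raised and 3.65% lowered). Their median log2 fold change, myb68 myb84 over WT, was 0.01, beside -0.003 over all tested genes, with 17 members above 0 and 13 below. The median size of the difference was 0.13 on the log2 scale, beside 0.14 over all tested genes. At an unadjusted p under 0.05, 0 were higher and 2 were lower (PP2-A1 and SWEET11), against 22.0% of all tested genes in either direction. DESeq2 called 0 raised and 1 lowered, which was PP2-A1, against 10.2% of all genes it tested in either direction. With limma-voom 0 and 0 were called, against 9.01% of all tested genes. The 2 groups of libraries did not overlap for 9 of the 30, against 27.2% of all tested genes, so non-overlap was about as common among the members as elsewhere.

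The 95% intervals of the differences (from each gene's standard error, not adjusted for the number of genes) lay within 1.5-fold in either direction for 22 of the 30 and within 2-fold for 29. The exception was NAC045, a gene of low level, whose interval ran from -0.41 to 1.08 on the log2 scale. In whole root segments, fewer cells of a type and less RNA per cell cannot be told apart.

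**Figure D1:**
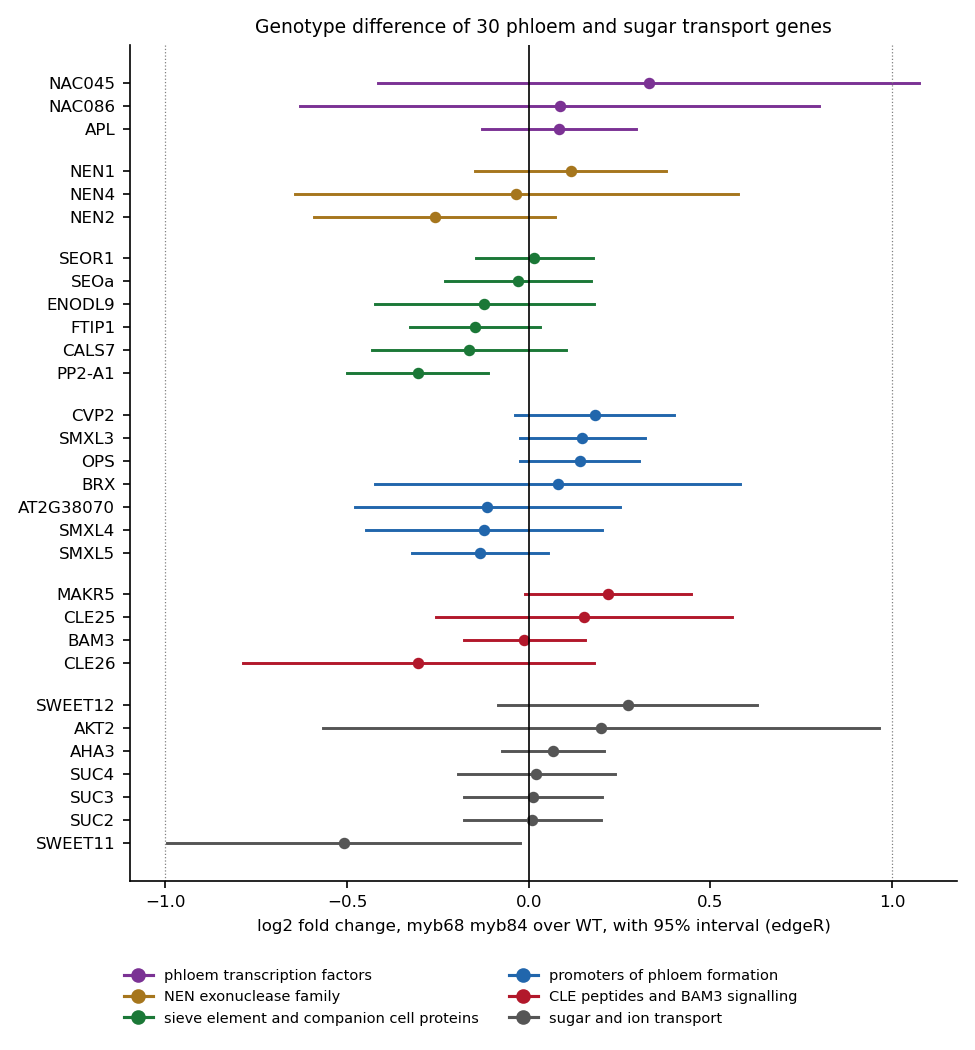
Log2 fold change of each of the 30 tested genes, myb68 myb84 over WT, grouped by role. Points are edgeR estimates from 3 libraries per genotype and bars are 95% intervals. All but 2 intervals, those of PP2-A1 and SWEET11, cross 0, and the dotted lines mark 2-fold.

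**Figure D2:**
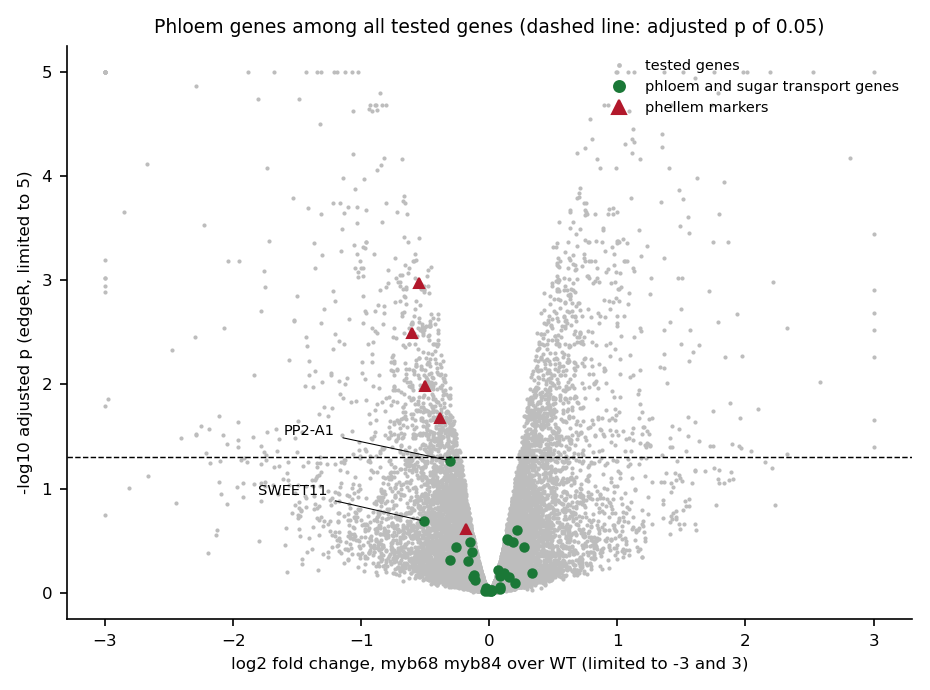
Log2 fold change (x, values beyond 3 in either direction drawn at that edge) against -log10 adjusted p (y, values above 5 drawn at 5) for all tested genes in grey, the 30 phloem and sugar transport genes in green and 5 phellem markers in red. The 30 genes lie under the dashed line at an adjusted p of 0.05, with PP2-A1 nearest to it, and 4 of the 5 phellem markers lie above it on the lowered side.

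Levels in TPM (counts scaled by transcript length and by library) spanned about 2 orders of magnitude among the 30 genes. PP2-A1 stood highest, at 87.2 ± 3.17 TPM in myb68 myb84 and 106 ± 10.9 TPM in WT (SD, n = 3 each), above 91.5% of tested genes in WT. The next 6 genes by WT level were SEOa, SWEET12, SUC2, ENODL9, BAM3 and SEOR1, at 39.2 to 43.7 TPM in WT. In myb68 myb84 the same 6 ran from ENODL9, at 37.2 ± 5.22 TPM, to SWEET12, at 53.3 ± 10.6 TPM, so their order differed between the genotypes. Neighbours among the 6 in the WT order lay within their spread. AHA3 followed at 28.8 ± 0.45 TPM in myb68 myb84 and 27.1 ± 0.569 TPM in WT, clear of its neighbours on both sides in each genotype in its mean and SD. The lowest were NAC086, NAC045 and AKT2, at 1.33, 0.773 and 0.626 TPM in myb68 myb84 and 1.20, 0.588 and 0.528 TPM in WT. TPM was scaled by all exon bases, and in PP2-A1, ENODL9 and NAC045 some of these also lie in exons of other genes. Reads in such bases may not have been counted, so the TPM of PP2-A1, ENODL9 and NAC045 may be too low. The coefficient of variation of CPM over the 3 libraries had a median over the 30 genes of 6.52% in myb68 myb84 and 11.1% in WT. It was 12.6% in myb68 myb84 and 39.6% in WT for NAC086, and 15.8% in myb68 myb84 and 36.6% in WT for NAC045.

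**Figure D3:**
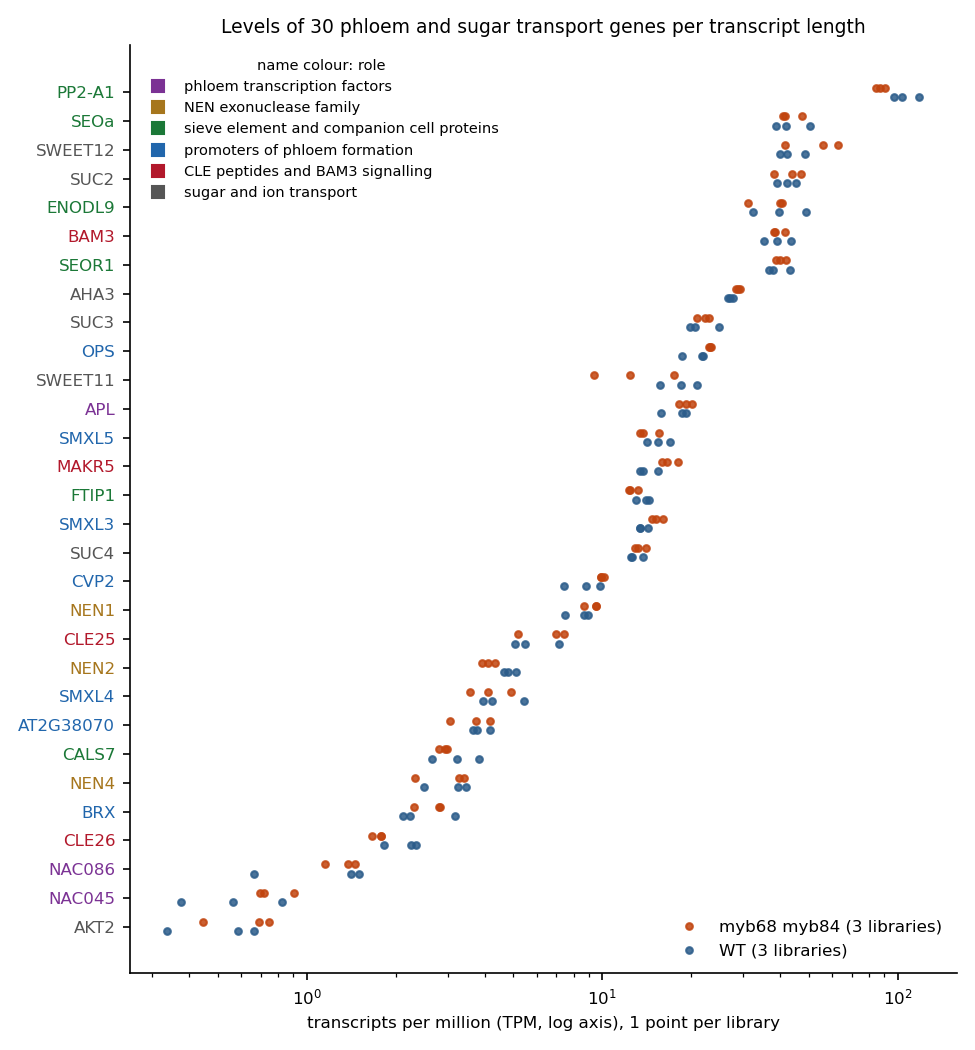
Levels of the 30 genes in TPM (x, log axis), ordered by their WT mean, with 1 point per library for myb68 myb84 (orange) and WT (blue) and the name coloured by role. PP2-A1 is at the top and AKT2, NAC045 and NAC086 are at the bottom; CLE45 and RTM1, listed at 0 in all 6 libraries, cannot be drawn on a log axis.

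Among the transcription factors, APL (AT1G79430), a MYB-related factor required for phloem identity, was the most abundant. It had 18.0, 19.1 and 17.1 CPM (counts scaled to library size by TMM) in myb68 myb84 1, 2 and 3, against 17.5, 15.7 and 18.0 CPM in WT 1, 2 and 3. The groups overlapped, and the log2 fold change was 0.08 ± 0.10 (SE; adjusted p = 0.688, edgeR). NAC045 and NAC086, factors downstream of APL that drive the loss of the sieve element nucleus, averaged 1.27 ± 0.20 and 1.43 ± 0.18 CPM in myb68 myb84 and 0.971 ± 0.356 and 1.31 ± 0.519 CPM in WT. Their differences were 0.33 and 0.09 on the log2 scale and did not pass (adjusted p = 0.640 and 0.915, edgeR).

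The NEN genes encode exonuclease-domain proteins that act downstream of these NAC factors as the nucleus is broken down. NEN1 (AT5G07710) had 10.4, 9.64 and 10.5 CPM in myb68 myb84, against 9.85, 10.04 and 8.23 CPM in WT, and the groups overlapped. NEN2 had 4.42, 4.96 and 4.63 CPM in myb68 myb84, against 5.42, 6.09 and 5.23 CPM in WT. Its groups did not overlap, and the difference of -0.26 did not pass (adjusted p = 0.360, edgeR). NEN4, whose product also acts in nuclear breakdown, averaged 1.699 ± 0.346 CPM in myb68 myb84 and 1.76 ± 0.327 CPM in WT.

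Genes for the working parts of sieve elements and companion cells included the nearest approach to a call. PP2-A1 (AT4G19840, chr4:10773804-10775942, plus strand, TAIR10.1) encodes a phloem lectin made in companion cells. It had 74.2, 78.1 and 80.3 CPM in myb68 myb84, against 86.2, 110 and 91.1 CPM in WT. Every mutant library lay below every WT library, and WT 2 was the highest of the 6. The log2 fold change was -0.31 ± 0.09 (SE), a level of 0.809 times WT, and an adjusted p of 0.0538 (edgeR). The adjusted p passed in 6 of the 14 alternative fits, among them DESeq2 (0.0279), and missed in 8, among them limma-voom (0.0611). Without WT 2 the difference was -0.19 (adjusted p = 0.130). Of the exon bases of PP2-A1, 18.8% also lie in exons of AT4G19830 on the opposite strand, which averaged 8.26 ± 0.694 CPM in myb68 myb84 and 7.08 ± 0.133 CPM in WT, and the part of that overlap in the result was not tested.

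The other genes of this role lay closer to 0. SEOR1 and SEOa are neighbouring genes for the protein filaments of sieve elements. SEOR1 had 61.5, 65.7 and 60.2 CPM in myb68 myb84, against 58.7, 60.1 and 66.9 CPM in WT, a log2 fold change of 0.02 with a 95% interval from -0.15 to 0.18. SEOa averaged 70.5 ± 6.38 CPM in myb68 myb84 and 72.0 ± 8.51 CPM in WT. The ratio of SEOR1 to SEOa counts overlapped between the genotypes, at 0.844 to 0.930 in myb68 myb84 and 0.819 to 0.908 in WT. CALS7, the callose synthase of sieve plates, ENODL9, an early nodulin-like protein of sieve elements, and FTIP1, needed to move the flowering signal FT into sieve elements, were at -0.16, -0.12 and -0.15 on the log2 scale. FTIP1 did not overlap between the groups (adjusted p = 0.326, edgeR), while CALS7 and ENODL9 did. Of the 6 tested genes of this role 5 had a negative value, with a median of -0.13, and none passed.

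None of the 7 genes that promote phloem formation passed. OPS (AT3G09070), a polar membrane protein of developing sieve elements, had 36.8, 37.2 and 37.5 CPM in myb68 myb84, against 34.9, 31.3 and 35.0 CPM in WT. Every mutant library was higher than every WT library, at a log2 fold change of 0.14 ± 0.08 (SE; adjusted p = 0.307, edgeR). CVP2, a phosphoinositide phosphatase, and SMXL3 also did not overlap between the groups, at 0.18 and 0.15 (adjusted p = 0.325 and 0.307, edgeR). SMXL4 and SMXL5, which act together with SMXL3 in starting phloem, were at -0.12 and -0.14, with overlapping groups. Without WT 3 the value of SMXL4 was -0.0012, and over all leave-outs it ran from -0.24 to -0.0012. BRX, a plasma membrane-associated regulator, and AT2G38070, which shares with OPS the annotation as a DUF740 protein, were at 0.08 and -0.11. The median of the 7 was 0.08.

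Of the CLE and BAM3 genes, the receptor kinase gene BAM3 (AT4G20270) was the most abundant. It had 75.8, 77.6 and 83.2 CPM in myb68 myb84, against 77.9, 74.1 and 86.9 CPM in WT. The ranges overlapped almost fully, and the 95% interval of the log2 fold change ran from -0.18 to 0.15. MAKR5 (AT5G52870), a regulator that acts after BAM3, had 14.6, 16.8 and 15.2 CPM in myb68 myb84, against 14.2, 13.3 and 12.3 CPM in WT. Its mutant libraries were the 3 highest, and at 0.22 it was the member closest to a call as higher (adjusted p = 0.251, edgeR). The peptide genes CLE25 and CLE26 averaged 5.59 ± 1.06 and 2.10 ± 0.0633 CPM in myb68 myb84 and 5.09 ± 0.875 and 2.62 ± 0.388 CPM in WT, and neither passed. CLE26 did not overlap between the groups, at a log2 fold change of -0.30 (adjusted p = 0.4775, edgeR), while CLE25 overlapped.

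CLE45 (AT1G69588), the gene for the peptide perceived by BAM3, was listed at 0 in all 6 libraries, as was RTM1 (AT1G05760), a lectin gene that limits long-distance movement of a plant virus in the phloem. In the TAIR10.1 annotation both lie inside genes of the opposite strand that were counted as well. Of the 682 exon bases of RTM1 (chr1:1723734-1724534, minus strand) all lie in exons of AT1G05750, which had 1162 counts over the 6 libraries. Of the 884 bases of CLE45 (chr1:26178042-26178925, plus strand) 94.8% lie in exons of the long non-coding RNA gene AT1G69587, which had 1905 counts. The 46 bases of CLE45 outside those exons are the first of its transcript and hold 0 coding bases, so the whole coding part is shared.

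Zeros were the rule for genes placed like this. Of 1108 counted genes whose exon bases all lie in exons of other genes, 1106 had 0 counts in all 6 libraries (99.8%), against 1419 of 8664 genes that share some of their bases (16.4%) and 4712 of 22776 that share none (20.7%). Where the overlap was with the opposite strand alone, 936 of 938 wholly shared genes were at 0, and of 287 such genes sharing at least 90% but not all of their bases 83.3% were at 0. The zeros of CLE45 and RTM1 do not show whether these genes were transcribed. The limit set by a zero, 3 counts or 0.0537 to 0.154 CPM of the unscaled library totals, holds only for reads that could be assigned to the gene. Among the tested members, NAC045 shares 33.5% of its exon bases and ENODL9 5.04%, and the other members but PP2-A1 share none.

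**Figure D4:**
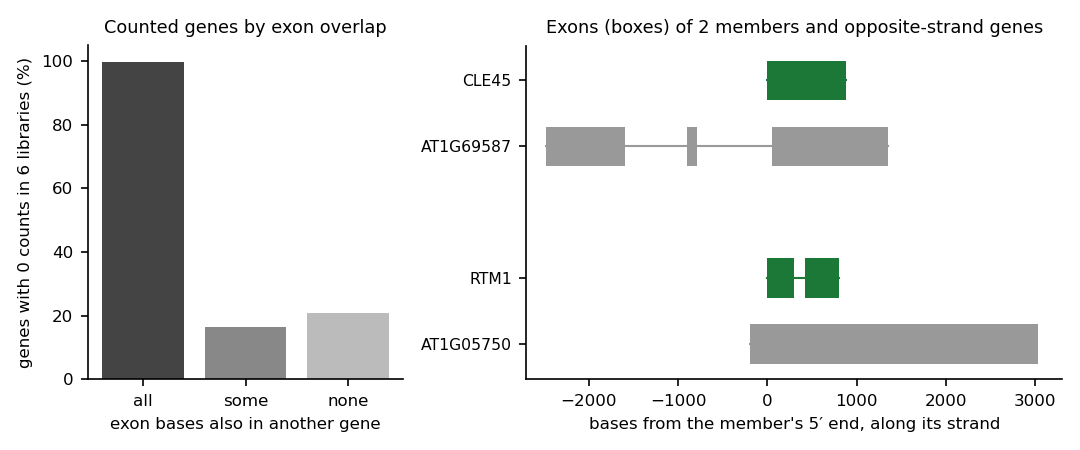
Left, percent of counted genes with 0 counts in all 6 libraries, by whether all, some or none of their exon bases also lie in exons of another counted gene. Right, exons (boxes) of CLE45 and RTM1 and of the opposite-strand genes over them, in bases from each member's 5′ end: 99.8% of wholly shared genes were at 0, and RTM1 and nearly all of CLE45 are covered.

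The sucrose carriers had differences near 0. SUC2 (AT1G22710, chr1:8030587-8033156, minus strand), the symporter that loads sucrose into companion cells, had 45.6, 57.3 and 52.7 CPM in myb68 myb84, against 54.6, 49.4 and 50.2 CPM in WT. Its mutant libraries held both the lowest and the highest value, and the log2 fold change was 0.01 with a 95% interval from -0.18 to 0.20. SUC3, another sucrose carrier, averaged 30.8 ± 1.23 CPM in myb68 myb84 and 30.7 ± 3.11 CPM in WT. SUC4, which sits in the vacuole membrane, averaged 17.4 ± 0.896 CPM in myb68 myb84 and 17.1 ± 1.44 CPM in WT. This gene (AT1G09960, annotated as SUT4) lies on chromosome 1 beside a run of genes with few counts in the mutant. Summed over libraries, its neighbour RAS1 had 0 counts in myb68 myb84 and 158 in WT, HEMA2 had 10 in myb68 myb84 and 4010 in WT, and AT1G09932 had 2 in myb68 myb84 and 539 in WT. Farther out, AT1G09920 had 2 in myb68 myb84 and 4039 in WT, and AT1G09910 had 54 in myb68 myb84 and 3602 in WT, while SUC4 itself had 2222 counts over the myb68 myb84 libraries and 1659 over the WT libraries. AHA3, the proton pump of companion cells, averaged 60.9 ± 0.957 CPM in myb68 myb84 and 58.1 ± 0.99 CPM in WT. Its groups did not overlap, at a log2 fold change of 0.07 (adjusted p = 0.605, edgeR). AKT2, a phloem potassium channel, averaged 1.21 ± 0.307 CPM in myb68 myb84 and 1.03 ± 0.305 CPM in WT.

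The SWEET facilitators, which release sucrose from phloem parenchyma, varied among the mutant libraries, with a coefficient of variation of 31.3% in myb68 myb84 and 15.0% in WT for SWEET11 and 20.8% in myb68 myb84 and 13.4% in WT for SWEET12. SWEET12 (AT5G23660, chr5:7971647-7973995, minus strand) had 32.6, 49.9 and 43.9 CPM in myb68 myb84, against 31.5, 40.2 and 33.1 CPM in WT. SWEET11 (AT3G48740, chr3:18052466-18054832, minus strand) had 7.58, 10.2 and 14.2 CPM in myb68 myb84, against 17.1, 15.8 and 12.6 CPM in WT. In each gene 1 mutant library lay among the WT values, myb68 myb84 1 for SWEET12 and myb68 myb84 3 for SWEET11. The log2 fold changes were 0.27 ± 0.16 for SWEET12 and -0.51 ± 0.21 for SWEET11 (SE; adjusted p = 0.364 and 0.204, edgeR). Without myb68 myb84 1 SWEET12 passed as higher (0.43, adjusted p = 0.0478), and without myb68 myb84 3 SWEET11 passed as lower (-0.78, adjusted p = 0.0189). Other leave-outs moved the values in both directions with no call. SWEET12 was at 0.14 without myb68 myb84 2 (adjusted p = 0.693, edgeR) and at 0.39 without WT 2 (0.237). SWEET11 was at -0.31 without myb68 myb84 1 (adjusted p = 0.342, edgeR) and at -0.61 without WT 3 (0.169).

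Ratios of counts within 7 pairs of related members, chosen after their values were seen, are given as a description. The ratio of SWEET12 to SWEET11 was 4.30, 4.89 and 3.09 in myb68 myb84, against 1.84, 2.55 and 2.61 in WT. That of NEN1 to NEN2 was 2.36, 1.94 and 2.27 in myb68 myb84, against 1.82, 1.65 and 1.57 in WT. In these 2 pairs the genotypes did not overlap, while they overlapped in the other 5: SEOR1 to SEOa, SMXL5 to SMXL4, NAC086 to NAC045, SUC2 to SUC3 and SUC2 to SUC4. Among single tested genes 27.2% did not overlap. No such share was computed for ratios of gene pairs, so 2 of 7 is not read as a genotype effect.

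**Figure D5:**
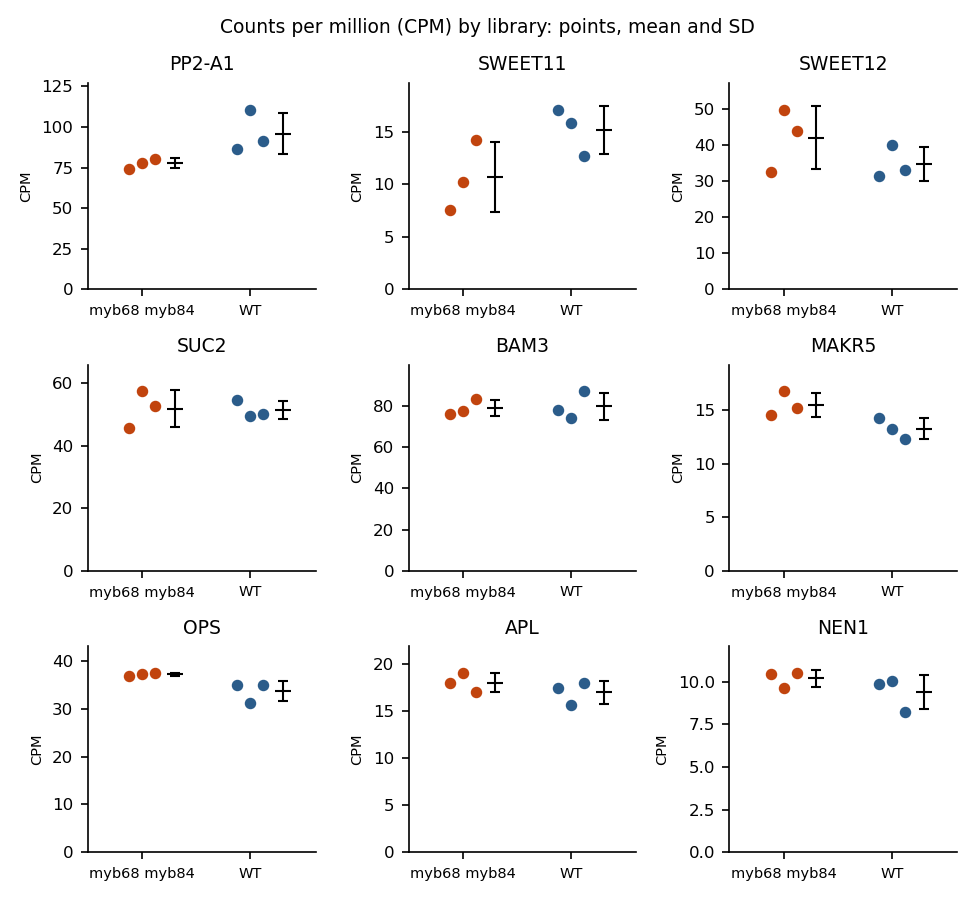
CPM in each library for 9 members, myb68 myb84 (orange) left of WT (blue), with the mean and SD as a bar beside each group of 3 points. PP2-A1, MAKR5 and OPS do not overlap between the genotypes; in SWEET11 and SWEET12 1 mutant library lies among the WT values.

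Over 4 further lists of sugar and phloem genes 3 of 32 tested genes were called (9.38%), a share near the 8.30% of all tested genes. Of the 6 further SUC genes only SUC1, a sucrose symporter of several organs, could be tested. It fell to 192 ± 10.9 CPM in myb68 myb84, against 242 ± 16.1 CPM in WT, a log2 fold change of -0.33 ± 0.08 (SE; adjusted p = 0.0185, edgeR). Per length it was above SUC2, at 148 TPM in myb68 myb84 and 184 TPM in WT. Leaving out myb68 myb84 2, myb68 myb84 3 or WT 1 ended the SUC1 call (adjusted p = 0.0562, 0.103 and 0.0924). Of 15 further SWEET genes 7 were tested and none passed. The most abundant of them, the vacuolar SWEET17, averaged 89.1 ± 5.12 CPM in myb68 myb84 and 91.2 ± 4.42 CPM in WT.

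Of 14 genes named as sucrose synthases or invertases 12 were tested, with 1 raised and 1 lowered. The lowered gene is annotated for splitting fructan, not sucrose. CWINV6, a cell wall enzyme annotated as a fructan exohydrolase, fell to 60.9 ± 3.66 CPM in myb68 myb84, against 79.1 ± 4.31 CPM in WT (log2 fold change -0.38, adjusted p = 0.00687, edgeR), and its call stayed in all 14 alternative fits. VI2, a vacuolar invertase that splits sucrose, rose to 187 ± 16.2 CPM in myb68 myb84, against 146 ± 14.5 CPM in WT (log2 fold change 0.36, adjusted p = 0.0256, edgeR). Leaving out any of myb68 myb84 1, myb68 myb84 2, WT 1 and WT 3 ended it (adjusted p = 0.0938, 0.0528, 0.111 and 0.0688). None of 12 further phloem regulators passed, among them the DOF factor gene TMO6, at 34.2 ± 4.77 CPM in myb68 myb84 and 37.7 ± 1.22 CPM in WT.

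Markers of other tissues give the setting. None of 7 xylem markers and none of 4 cambium markers passed. Summed levels were 165 to 187 CPM in myb68 myb84 and 166 to 193 CPM in WT for xylem. For cambium they were 87.7 to 100 CPM in myb68 myb84 and 91.0 to 97.7 CPM in WT. The xylem sum can hide opposite differences, since 4 log2 fold changes were positive and 3 negative, from -0.51 to 0.28. XCP1 was nearest a call (-0.25, adjusted p = 0.0832, edgeR), and its groups did not overlap. Of 5 phellem markers, all of them genes for suberin synthesis, 4 were lowered (CYP86A1, GPAT5, FAR4 and CYP86B1). The sum of all 5 was 315 to 380 CPM in myb68 myb84 and 457 to 488 CPM in WT. These levels cannot tell the amount of phellem apart from the activity of suberin genes. The calls of GPAT5 and CYP86B1 both ended without myb68 myb84 1 (adjusted p = 0.0506 and 0.0719) or myb68 myb84 2 (0.0518 and 0.0954), which leaves 2 lowered, and that of CYP86B1 also without WT 2 (0.0537) or WT 3 (0.0513). Of 4 leaf photosynthesis markers 2 were raised (RBCS1A and CAB3, at log2 fold changes of 0.69 and 1.17). CAB3 and the markers LHCB1.1 and LHCB1.3 are neighbouring genes for chlorophyll-binding proteins. How reads matching more than 1 of them were assigned is not given, and the part of such reads in the CAB3 call was not tested. The RBCS1A call ended without any 1 of the mutant libraries (adjusted p = 0.0763, 0.0886 and 0.0578 without myb68 myb84 1, 2 and 3), which leaves 1 raised. The sum of all 4 was 2698 to 3095 CPM in myb68 myb84 and 1447 to 2386 CPM in WT, so transcripts typical of green tissue were abundant in segments labelled root, and their part in the phloem values was not tested.

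Total counts ran from 32216039 to 55907128 in myb68 myb84 and from 19446419 to 51770078 in WT. The first principal component (48.6% of variance) split the genotypes, and the second (19.7%) set WT 2 and WT 3 apart. No 2 libraries were alike within sampling noise (chi-square per degree of freedom at least 11). Of the genes in the label, MYB84 had 6.0 ± 1.14 CPM in myb68 myb84 and 9.92 ± 2.69 CPM in WT (adjusted p = 0.0442, edgeR). MYB68 had 67.8 ± 7.03 CPM in myb68 myb84 and 53.7 ± 7.42 CPM in WT (adjusted p = 0.0613, edgeR). MYB84 transcript was still counted in every mutant library, and its call was not followed through the alternative fits. The transcript counts of MYB68 and MYB84 therefore do not check the label.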

How the data were processed

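RNA from 3 pools of roots per genotype was sequenced. The deposited files hold raw counts per gene, 1 column per library, made by the authors with Trim Galore, HISAT and featureCounts on TAIR10, per the submitters' processing notes, which also name DESeq2. No version, annotation release, strand setting or rule for multi-mapped reads is given in the sources used here. Near-identical gene copies may therefore share reads.

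The main test was edgeR 4.0.16 (R 4.3.3) on the deposited counts: quasi-likelihood F test with robust estimates, TMM scaling, filterByExpr at a minimum count of 10, genotype as the only term, and Benjamini-Hochberg adjustment over all 20941 tested genes, calling an adjusted p under 0.05. Log2 fold changes are myb68 myb84 over WT. The p-values measure the spread between pools of plants. Levels are CPM after TMM scaling. TPM used exon lengths from the RefSeq TAIR10.1 annotation, which also gave positions and overlaps (nuclear chromosomes as in TAIR10). Floors for a count of 0 were 3 counts and cover counting error only. List levels were summed CPM.

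Members, roles, lists and naming rules were chosen with earlier results of these data known. The genes given library by library are the most abundant member of each role and the members nearest a call in each direction; NEN2, SEOR1, SUC2 and SWEET11 were added with their values already seen. Alternative fits used upper-quartile scaling, DESeq2 size factors, no filter, a stricter filter (1 CPM or more in 3 libraries), limma-voom (limma 3.58.1), DESeq2 1.42.0, the replicate number as a block, thinning to 19446419 counts, and leaving out each library. The edgeR, DESeq2 and limma-voom fits were also run on simulated data, with changes larger than any member's estimate. That run does not measure how well differences of the members' size are found.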

Additional observations from a re-analysis of the deposited data

How the results depend on the processing

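The member counts moved by at most 1 gene. PP2-A1 alone made the 1 lowered member with upper-quartile scaling, with no low-count filter, in DESeq2, with the replicate block, in thinned libraries and without WT 1, and it is the 1 lowered gene of its role there. SWEET11 made the 1 lowered member without myb68 myb84 3, and SWEET12 the 1 raised member without myb68 myb84 1. With a library left out, members raised ran from 0 to 1 and lowered from 0 to 1, as did raised and lowered sugar and ion transport genes and lowered sieve element and companion cell genes, while the median of the members ran from -0.03 to 0.05. Over all genes, 579 to 947 were raised and 435 to 723 lowered with a library left out, against 975 and 764. The share of all tested genes called was 4.88% to 7.83% with a library left out. In the fits of all 6 libraries it was 7.33% to 10.2%. In the list of sucrose synthases and invertases 0 to 2 were raised and 1 to 3 lowered, and SUC1 gave 0 to 1.

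Values near 0 changed sign with no call on either side. With upper-quartile scaling SEOR1, SUC2, SUC3 and SUC4 were at -0.0062, -0.011, -0.0098 and -0.0005. In thinned libraries NEN4, BRX, SUC2 and SUC3 were at 0.0038, -0.12, -0.0021 and -0.012. With limma-voom NEN4 and SUC2 were at 0.027 and -0.002. With a library left out, the ranges were -0.17 to 0.28 for NAC086, -0.19 to 0.13 for NEN4, -0.023 to 0.075 for SEOR1, -0.10 to 0.071 for SEOa, -0.23 to 0.013 for ENODL9, -0.21 to 0.0089 for AT2G38070, -0.051 to 0.25 for BRX, -0.059 to 0.055 for BAM3, -0.065 to 0.097 for SUC2, -0.036 to 0.096 for SUC3, -0.020 to 0.093 for SUC4 and -0.014 to 0.43 for AKT2. The causes were not tested.

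Whether replicate numbers pair the libraries is not settled here. Deviations of same-numbered libraries correlated at 0.01, 0.04 and 0.11, and those of other pairs at -0.08 to 0.05. The highest value was that of myb68 myb84 3 with WT 3. By contrast, myb68 myb84 1 was closest to WT 2 (0.02) and myb68 myb84 2 to WT 1 (0.05). With the replicate block 1154 genes were raised and 915 lowered, and PP2-A1 was at -0.30 (adjusted p = 0.0301). Depth limits NAC045, NAC086, NEN4 and AKT2, all under 2 CPM on average.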

Other observations

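The sucrose synthase genes SUS1 and SUS4, which split sucrose and are known to respond to low oxygen, were named after their values were seen because WT 3 stood apart. SUS1 had 112, 115 and 115 CPM in myb68 myb84 1, 2 and 3, against 162, 172 and 106 CPM in WT 1, 2 and 3. SUS4 had 29.0, 25.7 and 27.9 CPM in myb68 myb84, against 46.6, 49.5 and 22.0 CPM in WT. With all 6 libraries neither passed edgeR's test (log2 fold change -0.37 and -0.53, adjusted p = 0.229 and 0.404). Without WT 3 the log2 fold changes were -0.55 and -0.80, and with any other library left out they ran from -0.37 to -0.24 for SUS1 and from -0.56 to -0.34 for SUS4. The genes were picked for the gap at WT 3, so these values are a description. WT 3 also had the lowest level of the leaf photosynthesis gene CAB3, at 178, 191 and 168 CPM in myb68 myb84 and 87.9, 93.3 and 56.3 CPM in WT, and its part in the sucrose synthase values was not tested.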
